A study of Mus musculus with 2 samples.

Results

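The regions described here are 2883 ATAC-seq peaks of control mouse enteroids that lay in 261 gene neighbourhoods where open chromatin was called mostly in control. Each peak more than 1 kb from any annotated start site (distal) was assigned to the protein-coding gene with the nearest start site on the mouse assembly mm9. A distal peak was control-only when no Taf4-inactivated peak overlapped it by 1 bp, and Taf4-inactivated-only in the opposite case. A gene was kept when it held 8 or more control-only peaks and at most 0.25 times as many Taf4-inactivated-only peaks, and its control-only peaks are the members. The rule was met by 261 of 16290 protein-coding genes with a distal peak (1.6%), and the members were 6.63% of the 43508 distal control-only peaks and part of a control list of 90445 peaks. The members were thus chosen on the difference between both lists, and that difference is a description of the choice.

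Enteroids are epithelial cultures grown from crypts, here from the ileum of C57Bl6/129sv mice 4 months old. Control enteroids carried floxed Taf4 alleles (Taf4 lox/lox) without a Cre recombinase and were labelled WT. Taf4-inactivated enteroids, labelled KO, carried the same alleles with VilCreERT2, a recombinase driven by the promoter of the epithelial gene Vil1 and activated by 4-hydroxytamoxifen (4-OHT). Both received 1 µM 4-OHT for 3 days, so loss of Taf4 and activation of the recombinase cannot be told apart. Each genotype had 1 library, so nothing below has a replicate check and no test between genotypes was made. Intervals (CI) are exact 95% Clopper-Pearson intervals of shares and cover counting error only.

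Open chromatin away from start sites often marks enhancers, stretches of DNA where transcription factors bind and act on a promoter that can be far away. Genes of development frequently have many such elements spread over a long regulatory domain around them. Taf4 encodes a subunit of TFIID, the general factor that recognises core promoters and helps assemble RNA polymerase II there.

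The libraries differed in depth. From the fold enrichment and p of the peaks, the background level was 12.1 reads in control and 7.35 in the Taf4-inactivated library, which placed the latter at 60.5% of the control depth. Over both lists, 61.5% of the distal control peaks (43508 of 70789) and 48.8% of the distal Taf4-inactivated peaks (26271 of 53780) had no partner. Start site peaks of 9 of 10 epithelial markers were in both lists, and Krt20 had one in the Taf4-inactivated list. Of 4 immune markers, 3 had none in either list and Itgam had one in both, at percentile 59.3 of fold in control and 29.4 after inactivation. Start site peaks in both lists were also found at 3 of 4 mesenchymal markers (Col1a1, Col1a2 and Pdgfra), at 1 of 3 endothelial markers (Kdr, percentile 93.1 in control and 35.9 after inactivation) and at 1 of 3 markers of nerve and glia (Elavl4). The part of other cell types in the peak lists was not tested.

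The strongest member, by fold enrichment over background, is shown for the genes with most members, to let a reader see the kind of DNA that was called in control alone. The members at Smad7 and Ctdp1, which also rank among the first 8 genes, are not shown. Sequences are the central 300 bases of a peak, or the whole peak where it was shorter, from the NCBIM37 (mm9) reference, and capitals mark AGATAA, the core sequence read by GATA factors, on either strand.

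Sdk2, member, chr11:113772410-113772709, plus strand: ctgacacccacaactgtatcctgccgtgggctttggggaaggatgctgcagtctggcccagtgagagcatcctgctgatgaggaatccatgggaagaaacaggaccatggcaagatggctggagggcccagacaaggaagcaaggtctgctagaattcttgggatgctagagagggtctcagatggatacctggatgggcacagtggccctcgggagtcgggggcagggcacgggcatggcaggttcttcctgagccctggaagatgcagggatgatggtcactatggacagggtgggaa
Xpnpep1, member, chr19:53125966-53126245, plus strand: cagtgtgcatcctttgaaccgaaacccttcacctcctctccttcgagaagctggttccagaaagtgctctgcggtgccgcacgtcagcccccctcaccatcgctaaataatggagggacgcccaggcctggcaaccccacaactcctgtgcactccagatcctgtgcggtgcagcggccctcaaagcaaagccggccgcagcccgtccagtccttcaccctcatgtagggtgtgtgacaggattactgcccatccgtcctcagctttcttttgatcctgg
Col5a1, member, chr2:27685099-27685398, plus strand: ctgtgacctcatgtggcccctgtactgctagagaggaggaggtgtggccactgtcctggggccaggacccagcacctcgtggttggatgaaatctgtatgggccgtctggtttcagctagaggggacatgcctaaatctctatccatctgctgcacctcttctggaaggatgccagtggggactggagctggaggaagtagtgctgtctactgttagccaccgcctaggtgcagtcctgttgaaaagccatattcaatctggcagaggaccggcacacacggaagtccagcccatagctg
Kif26b, member, chr1:180410149-180410394, plus strand: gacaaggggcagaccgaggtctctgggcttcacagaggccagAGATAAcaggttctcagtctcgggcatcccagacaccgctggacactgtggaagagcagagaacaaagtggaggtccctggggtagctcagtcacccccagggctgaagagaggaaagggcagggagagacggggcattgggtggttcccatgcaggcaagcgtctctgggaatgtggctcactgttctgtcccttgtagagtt
Atrnl1, member, chr19:57799464-57799763, plus strand: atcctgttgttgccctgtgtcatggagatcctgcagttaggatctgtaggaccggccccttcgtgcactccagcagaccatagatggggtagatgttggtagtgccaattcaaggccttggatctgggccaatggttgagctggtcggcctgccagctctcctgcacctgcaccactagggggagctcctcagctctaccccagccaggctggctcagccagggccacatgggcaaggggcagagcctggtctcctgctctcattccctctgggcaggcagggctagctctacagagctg
1700018B08Rik, member, chr8:123920768-123921067, plus strand: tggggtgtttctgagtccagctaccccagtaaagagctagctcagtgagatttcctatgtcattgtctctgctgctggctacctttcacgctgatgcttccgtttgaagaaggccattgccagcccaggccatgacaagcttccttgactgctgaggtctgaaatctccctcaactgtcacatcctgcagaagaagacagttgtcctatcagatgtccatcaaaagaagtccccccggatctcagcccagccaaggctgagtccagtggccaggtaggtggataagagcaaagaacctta

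At Sdk2 the strongest distal control peak that did overlap a Taf4-inactivated peak is shown for comparison, with the same use of capitals.

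Sdk2, shared peak, chr11:113783465-113783764, plus strand: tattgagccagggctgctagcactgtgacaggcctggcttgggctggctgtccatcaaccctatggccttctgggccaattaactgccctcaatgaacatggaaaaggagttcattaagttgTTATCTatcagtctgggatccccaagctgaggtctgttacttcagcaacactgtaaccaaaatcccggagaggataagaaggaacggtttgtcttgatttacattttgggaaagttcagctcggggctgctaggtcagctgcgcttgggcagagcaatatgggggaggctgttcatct

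The 6 member sequences had between 51.3% and 60.3% GC, and the shared one at Sdk2 had 50%. The member at Kif26b and the shared peak contained AGATAA on 1 of the strands. None of these sequences contained the AP-1 letters TGANTCA, in which N is any base. The fold enrichment of this strongest of 31 members at Sdk2 was 2.32, against 2.03 in the strongest of 11 shared peaks. The order was the opposite for the medians at this gene, 1.85 in members and 1.90 in shared peaks.

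The neighbourhoods held a median of 9 members each. In 89 of them the count was exactly 8, the lowest the rule allows, and the highest count was 31. They also held 508 Taf4-inactivated-only peaks in all, with none in 23 neighbourhoods, 1 in 65, 2 in 113 and at most 7. Shared distal control peaks were present in 248 of the 261 neighbourhoods, 1040 in all, so most had open chromatin in both lists beside the members. Members made up 73.5% of the distal control peaks assigned to these genes.

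**Figure D1:**
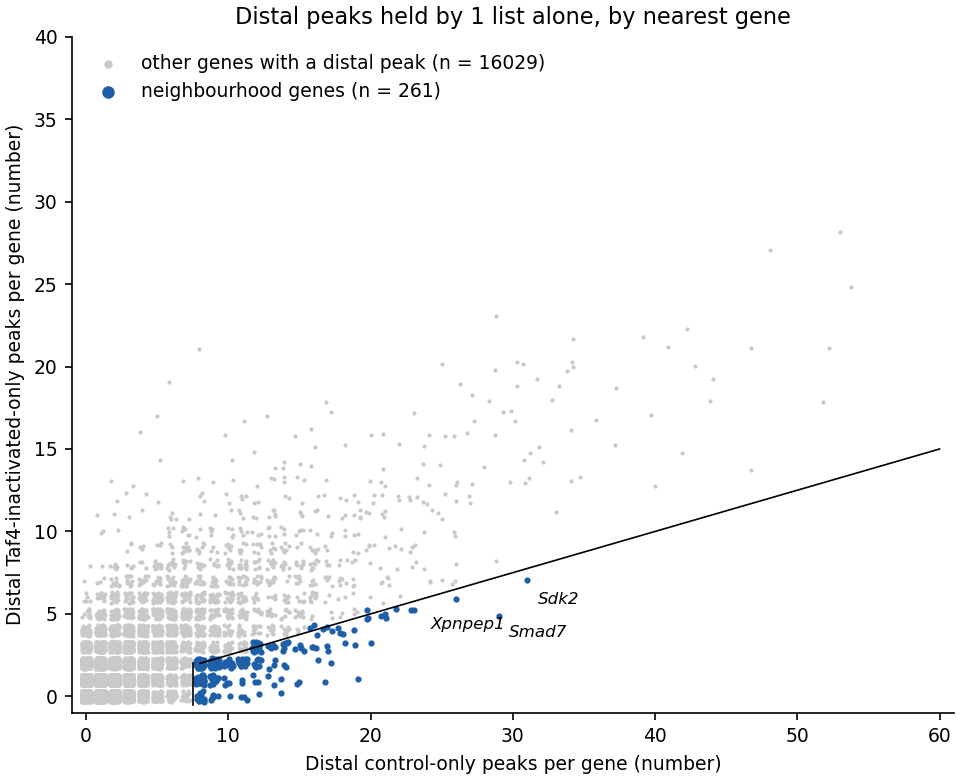
Each point is a protein-coding gene with a distal peak, placed by its number of distal control-only peaks (horizontal axis) and of distal Taf4-inactivated-only peaks (vertical axis), with points spread slightly around whole numbers. Black lines mark the rule: 261 neighbourhood genes, in blue, lie right of and below them, and Sdk2, Smad7 and Xpnpep1 have most members, while 1 gene lies outside the axes.

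The edges of the rule ran through a continuous range of genes. With exactly 7 control-only peaks there were 340 genes, of which 67 met the ratio, among them 1700012B07Rik and 9030224M15Rik. With exactly 8 there were 253, of which 89 met it, among them 0610007P08Rik and 1700017G19Rik. A further 222 genes had at least 8 control-only peaks and a ratio above 0.25 and up to 0.375, such as 1600029D21Rik and 1700067P10Rik. At 1700067P10Rik 14 control-only peaks stood against 4 Taf4-inactivated-only ones. The reverse rule, with the lists exchanged, was met by 19 genes (0.117%) holding 190 peaks. It drew on 26271 distal Taf4-inactivated-only peaks, against 43508 control-only ones from the deeper library.

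Sdk2, which encodes an adhesion molecule of the immunoglobulin superfamily, had most members. Its neighbourhood held 31 control-only, 11 shared and 7 Taf4-inactivated-only distal peaks. The members spread over 329 kb, with a median spacing of 8.01 kb, and 28 of the 31 lay inside the gene (chr11:113637688-113928360, minus strand). Their fold enrichment ran from 1.68 to 2.32, with a median of 1.85.

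Smad7, an inhibitor of TGF-beta and BMP signalling inside the cell, had 29 members and 5 Taf4-inactivated-only peaks. Only 3 of its members lay inside Smad7 itself, whereas 11 lay within the nearby gene Ctif and 7 within Dym. Its start site peak stood at percentile 72.6 of fold enrichment in control and 82.7 after inactivation, so the start site ranked higher after inactivation although the surrounding distal peaks were mostly called in control.

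Xpnpep1, which encodes an aminopeptidase, had 26 members and 6 Taf4-inactivated-only peaks. They reached up to 361 kb beyond the gene start in the direction of transcription, and 9 of them followed each other with no shared or Taf4-inactivated-only distal peak between. Col5a1, a chain of type V collagen, had 23 members and 5 Taf4-inactivated-only peaks, in a territory of 0.238 Mb, and 14 of the members lay inside the gene. Kif26b, a kinesin family member, had 23 and 5 as well, with 21 of the members inside the gene.

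Atrnl1, the attractin-like gene, had 22 members against 5 Taf4-inactivated-only peaks. Ctdp1, a phosphatase of the RNA polymerase II tail, had 21 against 5, with a run of 10 members uninterrupted by other distal peaks. Irx4, an Iroquois homeobox factor, had 21 against 5, and 0 of them lay inside the gene: they extended as far as 312 kb upstream of it. Gjb5, a connexin, had 20 against 3, again all outside the gene, and its start site peak stood at percentile 24.1 in control and 0.452 after Taf4 inactivation.

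**Figure D2:**
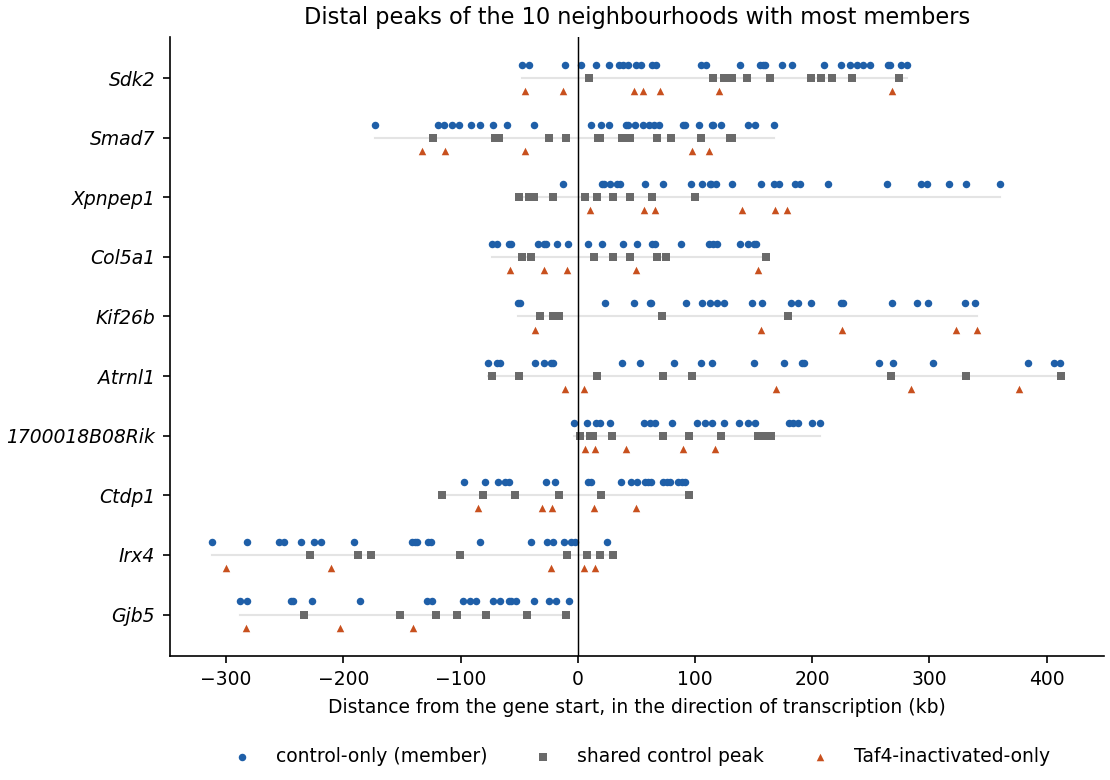
Distal peaks of the 10 neighbourhoods with most members, one row per gene, by distance from the gene start in kb along the direction of transcription. Blue circles are members, grey squares control peaks shared with the Taf4-inactivated list and orange triangles Taf4-inactivated-only peaks: members lie between the others rather than in 1 block, from upstream only at Gjb5 to almost wholly inside the gene at Kif26b.

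The seventh of these genes, 1700018B08Rik, belonged to a row of 3 consecutive neighbourhoods on chromosome 8. There, Foxf1a had 16 members, Foxc2 12 and 1700018B08Rik 21, a total of 49 against 12 Taf4-inactivated-only peaks. Foxf1a and Foxc2 encode forkhead factors of mesenchymal development. All 49 members lay within 1 long annotated gene model, Gm20388, which spans these genes. The start site peak of Foxc2 ranked at percentile 72.7 in control and 3.28 after inactivation, and that of Foxf1a at 51.2 and 11.4, while 1700018B08Rik had none in either list.

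Neighbouring genes met the rule together in 16 such rows, holding 35 of the 261 genes. Urb2, Galnt2 and Pgbd5 on chromosome 8 had 40 members and 8 Taf4-inactivated-only peaks between them. Rfk, Pcsk5 and Ostf1 on chromosome 19 had 33 and 3. Rxra, a nuclear receptor that pairs with others of its family, adjoined Col5a1 and the pair had 35 and 8.

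Among the 23 neighbourhoods with no Taf4-inactivated-only peak, Rfk, the gene of riboflavin kinase, had most members with 14. Gm5745 followed with 12, and Ccdc147, Entpd1 and Parvb had 11 each. Entpd1 encodes an enzyme that breaks down extracellular ATP. Its start site peak ranked high in both lists, at percentile 97.9 in control and 95.7 after inactivation.

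Parvb encodes a parvin at sites of cell adhesion to matrix. It had no other distal control peak and no Taf4-inactivated-only peak, so its 11 members, over 76.6 kb, necessarily formed 1 row. Their fold enrichment was modest, from 1.72 to 2.05, and 8 of the 11 lay within introns. In 8 neighbourhoods the members formed 1 row with no shared or Taf4-inactivated-only distal peak between. Among them were Parvb, Gm5528, Wdr27, Ccnj, Gm17434, Mettl4 and Ptpn20. Over all neighbourhoods the longest row had a median of 5 members and a maximum of 12.

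A territory is the stretch of chromosome nearer to a gene's start sites than to those of any other protein-coding gene. It had a median of 0.188 Mb for the neighbourhood genes, 0.0606 Mb for all genes with a distal peak and 0.291 Mb for the 963 other genes with at least 8 control-only peaks. In all, 1224 genes (7.51%) had that many. The neighbourhoods thus covered 2.86% of the territory of all genes, and held 6.63% of the distal control-only peaks and 3.81% of the shared distal control peaks. Per Mb there were 37.9 members in the neighbourhoods against 16.4 distal control-only peaks over all genes. The rule, which asks for many control-only peaks, itself brings about such a difference. By gene, the median density was 58.8 per Mb in neighbourhood genes, 45.7 in the other genes with at least 8 and 24.0 over all genes. Shared distal peaks numbered 13.7 per Mb over the neighbourhoods and 10.3 over all genes.

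By density the order of genes changed. Tcof1, which acts in ribosomal RNA synthesis, had 8 members in a territory of 0.0540 Mb, or 148 per Mb. Pou2f2, an octamer-binding factor known from B cells, had 8 members at 146 per Mb. Parvb had 129 per Mb and Jdp2, a partner of Jun proteins, 12 members at 113 per Mb. At Tcof1 and Jdp2 there were 2 and 3 Taf4-inactivated-only peaks, and at Pou2f2 1.

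In strength the members belonged to the weak end of the control list. Their fold enrichment had a median of 1.97 (quartiles 1.88 and 2.07), against 1.98 in the 40625 other distal control-only peaks and 2.08 in the shared ones. The median −log10 q, the authors' measure of confidence, was 1.65 in members, 1.67 in the other control-only peaks and 2.31 in shared peaks. It reached 5 in 3 of the 2883 members (0.104%, CI 0.0215 to 0.304) and in 12.3% of shared peaks. Of the members, 9 (0.312%) were among the top 10% of the control list by fold. The strongest lay at 0610007P08Rik, with a fold of 2.85, followed by Ptpn20 (2.69), Pcdh19 (2.68), Phactr1 (2.66) and Map4k3 (2.63). When the reads of each control peak and its background were scaled to the Taf4-inactivated depth, 2108 members (73.1%, CI 71.5 to 74.7) no longer reached 2.87, the smallest −log10 p found in the other list. In other distal control-only peaks this share was 70.8% and in shared peaks 39.1%.

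The scaling left few members at any one gene. Sdk2 kept most, with 11 of 31, the median neighbourhood kept 3, and at 10 neighbourhoods no member reached that level. With the remaining control peaks, 0 genes met the rule (an alternative added after the data had been seen), and the same was found when control peaks needed a −log10 q of at least 2. With the control list shortened to the 71282 peaks of the other list, 37 genes met it. All lay among the 261 by construction, since a shorter control list can only lose control-only peaks and gain Taf4-inactivated-only ones. The part of depth in the difference between the libraries was not tested otherwise.

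In form the members resembled other control-only peaks more than shared ones. Their median width was 454 bp, against 429 bp in other distal control-only peaks, 632 bp in shared peaks and 349 bp in Taf4-inactivated-only peaks. Their median GC share was 52.3%, against 52.4%, 52.6% and 50% in the same sets.

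**Figure D3:**
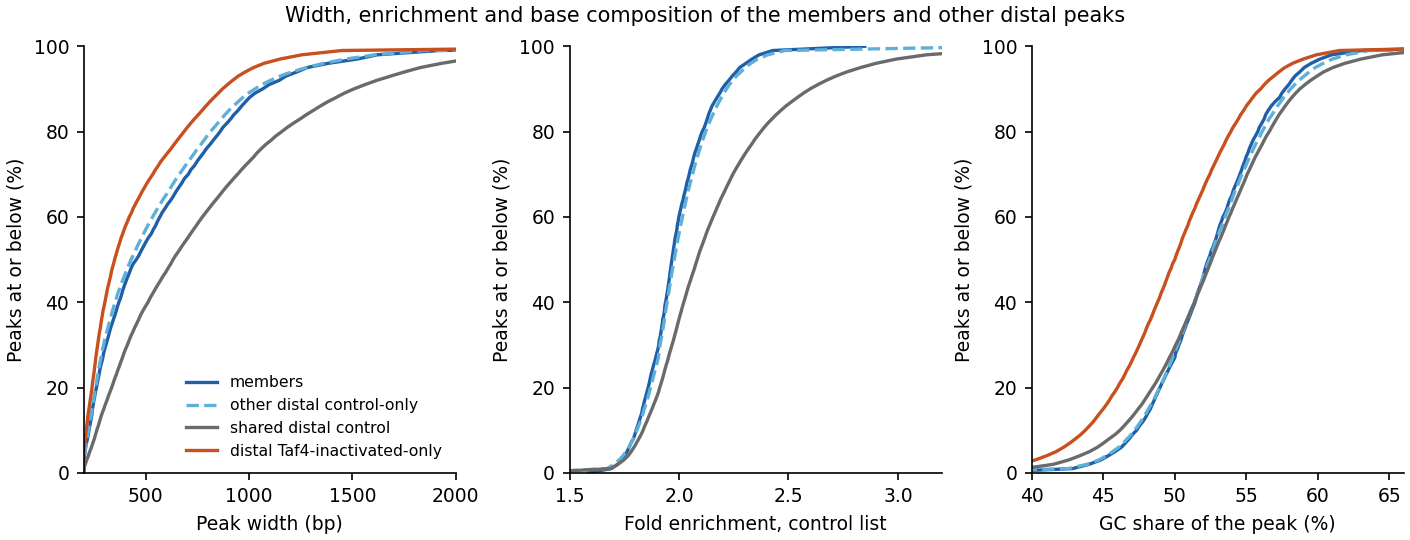
Cumulative curves of peak width in bp (left), fold enrichment in the control list (middle) and GC share in percent (right) for members, other distal control-only peaks, shared distal control peaks and, except for fold, distal Taf4-inactivated-only peaks. The curves of members and other control-only peaks nearly coincide, with median widths of 454 and 429 bp, and shared peaks are wider and stronger.

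The members lay at a median of 39.6 kb from the nearest protein-coding start site, and 656 of them (22.8%) lay beyond 100 kb. The median was 25.02 kb for other distal control-only peaks, 57.5 kb for those at other genes with at least 8, and 19.9 kb for shared peaks. Shared peaks in the same neighbourhoods lay at a median of 37.1 kb, close to the members. Inside the assigned gene lay 40.9% of the members, upstream of it 33.4% and downstream 25.7%, against 39.9%, 34.9% and 25.2% of other distal control-only peaks. Introns of any annotated gene held 49.98% of the members (CI 48.1 to 51.8), 43.9% of other distal control-only peaks and 48.2% of those at other genes with at least 8. Of the neighbourhoods, 17 had every member inside the gene and 54 had none there.

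Recognition sequences were searched in the central 300 bases on both strands. The AP-1 letters TGANTCA, read by Fos and Jun dimers, occurred in 8.81% of members (CI 7.80 to 9.90), 8.53% of other distal control-only peaks and 13.4% of shared ones. The same letters reversed, ACTNAGT, occurred in 7.21%, 7.10% and 7.47%. AGATAA was present in 10.5%, 10.4% and 13.3%. The HNF4 letters CAAAGTCCA are read by a family of nuclear receptors of enterocytes. They were in 0.486% of members, 0.507% of other distal control-only peaks and 1.37% of shared peaks. The CTCF core pattern was in 0.243%, 0.507% and 1.81%. The shares of AP-1, AGATAA, HNF4 and CTCF letters were lower in members than in shared peaks, whereas that of the reversed AP-1 letters in shared peaks lay within the members' interval (CI 6.30 to 8.22). Shared peaks in the same neighbourhoods had 11.8% for AP-1, 1.35% for HNF4 and 1.44% for CTCF. Their share of AGATAA, 11.5%, lay within the members' interval (CI 9.38 to 11.7). Distal Taf4-inactivated-only peaks had 14.05% for AP-1, 8.29% for the reversed letters, 16.3% for AGATAA and 2.295% for CTCF. These shares, and that of HNF4, were above those of members and of shared peaks. Inside the neighbourhoods, Taf4-inactivated-only peaks had 12.2% for AP-1, 13.8% for AGATAA and 2.76% for CTCF. Their share of HNF4, 0.787%, had an interval (CI 0.215 to 2.004) that held the members' share.

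The start sites of the neighbourhood genes were mostly open in both lists. A start site peak was present in both for 212 of 261 genes (81.2%, CI 76.0 to 85.8), against 69.4% of all genes with a distal peak and 84.6% of other genes with at least 8 control-only peaks. A start site peak was called in control alone at 10 genes, among them Nkx1-1, a homeobox factor, with 9 members and 2 Taf4-inactivated-only peaks. It was called in the Taf4-inactivated list alone at 7, among them Six2, a homeobox factor of the kidney progenitors, and Kcnj15, a potassium channel. At 32 genes there was none.

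Ranked by fold within each list, the start site peaks of neighbourhood genes were lower after inactivation at 161 of 212 genes (75.9%). Their rank difference (Taf4-inactivated minus control) had a median of -6.96 percentile points. Over all 11313 genes with both peaks it was negative at 67.4% and had a median of -3.32, and at other genes with at least 8 it was -8.09. Among the named genes, Lhx1 moved from percentile 30.6 to 80.9, whereas Cacng2 went from 93.2 to 59.3. Start site ranks thus moved both ways in neighbourhoods of the same kind.

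**Figure D4:**
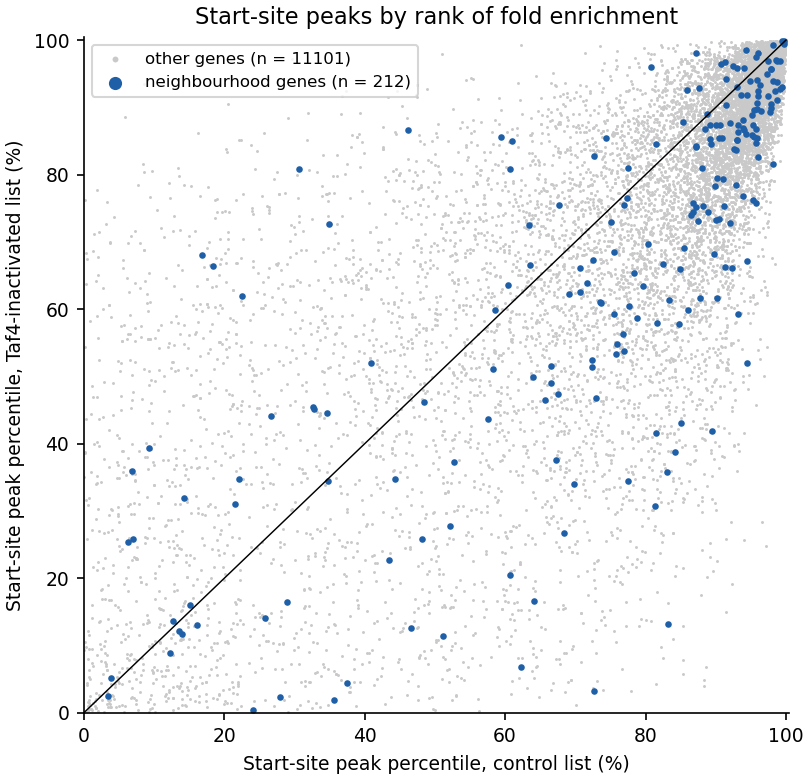
Percentile of fold enrichment of the start site peak in the control list (horizontal axis) and in the Taf4-inactivated list (vertical axis) for 212 neighbourhood genes, in blue, and 11101 other genes with both peaks, in grey. The line marks equal rank, and 161 of the 212 blue points lie under it.

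The shared distal peaks inside the neighbourhoods took no part in the rule. For 1030 pairs of control and Taf4-inactivated peaks that overlapped each other best, the rank difference (Taf4-inactivated minus control) had a median of -4.04 percentile points (quartiles -20.4 and 9.34). It was negative in 59.0% (CI 56.0 to 62.1) of them. Outside the neighbourhoods, 25868 pairs had a median of -2.89 and 56.9% were negative. At the genes of the reverse rule, 82 pairs had a median of -3.29 and 58.5% (CI 47.1 to 69.3) were negative, so a lower rank was not particular to the neighbourhoods. Ranked by −log10 p in place of fold, the medians were -6.67 in the neighbourhoods and -4.52 outside, with 62.2% (CI 59.2 to 65.2) and 59.5% (CI 58.9 to 60.1) of the pairs negative. At the genes of the reverse rule this median was -2.00, with 59.8% (CI 48.3 to 70.4) negative.

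Genes of several families were counted among the neighbourhoods. The lists of developmental factors, adhesion genes, zinc fingers and olfactory receptors were taken by symbol prefix, such as Sox, Fox or Cdh, and not by known function. Of 216 developmental transcription factors with a distal peak, 13 were neighbourhood genes (6.02%, against 1.6% of all genes), and their median territory was 0.101 Mb against 0.0606 Mb. They were Irx4, Foxf1a, Lhx1, Foxc2, Foxo3, Six2, Sox11, Pbx3, Nkx1-1, Foxo6, Onecut1, Pou2f2 and Tbx15. Lhx1, a LIM homeobox factor, had 15 members against 1 Taf4-inactivated-only peak. Foxo3, a forkhead factor that responds to insulin signalling, had 12 against 3, and Sox11 12 against 2. Onecut1, a factor of liver and pancreas, and Tbx15, a T-box factor, had 8 against 2 each. In total the 216 genes held 1072 distal control-only and 606 Taf4-inactivated-only peaks, against 43508 and 26271 over all genes.

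Wnt signalling keeps crypt stem cells dividing, and 3 of its 53 genes with a distal peak were neighbourhood genes (5.66%, against 1.6% of all genes). The median territory of these 53 genes was 0.101 Mb. Fzd10, a Wnt receptor, had 12 members against 2 Taf4-inactivated-only peaks, Lef1 10 against 2 and Tcf7l1 8 against 2. Lef1 and Tcf7l1 encode DNA-binding partners of beta-catenin. Of 21 Notch genes, with a median territory of 0.0651 Mb, 1 was counted (4.76%): Hes1, a repressor induced by Notch, had 9 members, 2 Taf4-inactivated-only peaks and 9 shared peaks. Of 20 crypt stem cell genes, with a median territory of 0.201 Mb, Cdca7 alone was counted (5%), with 12 members against 2.

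Genes of ion channels and receptors were taken by symbol prefix, such as Kcn, Cacn and Gabr, and not by expression in neurons. They gave 6 of 198 genes (3.03%, with a median territory of 0.101 Mb), among them Kcnj15, Cacng3, Cacng2, Cacng4 and Kcnh2. Kcnj15 had 17 members against 2, with 10 of them in a row. Adhesion and axon guidance genes gave 3 of 157, or 1.91%, close to the 1.6% over all genes although their median territory was 0.192 Mb. There Pcdhgc5, of the clustered protocadherins, had 11 members against 2, Pcdh19 had 9 against 2 and Cdh2, the neural cadherin, 8 against 1. The members at Pcdh19 and Cdh2 spread over 1354 and 1447 kb. Zinc finger genes gave 1 of 257 (0.389%), Zfp532.

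None of 18 enterocyte genes, 17 secretory genes, 16 genes of intestinal transcription factors, 11 AP-1 genes, 21 Polycomb genes or 257 olfactory receptor genes with a distal peak was a neighbourhood gene. At 1.6% of all genes, a count of 0 is close to the background for each list but the last, whose genes had a median territory of 0.0304 Mb. The enterocyte genes held 38 distal control-only and 50 Taf4-inactivated-only peaks in all, and the intestinal factor genes 85 and 74. These numbers were 55 and 38 for the secretory genes, 24 and 16 for the AP-1 genes and 49 and 30 for the Polycomb genes. They were 235 and 95 for the olfactory receptor genes, against 43508 and 26271 over all genes. The reverse rule was met by 1 enterocyte gene and 1 olfactory receptor gene.

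Chromosome 19 held 29 of the neighbourhoods and 325 members. The share of its genes that met the rule was 5.38% (29 of 539, CI 3.63 to 7.64), against 1.47% on the other chromosomes (232 of 15751, CI 1.29 to 1.67). Over the whole chromosome there were 1707 distal control-only and 739 Taf4-inactivated-only peaks, a ratio of 2.31 against 1.64 elsewhere. Xpnpep1 and Atrnl1 were the largest there, followed by Ablim1 with 18 members and Glis3, Apba1 and Neurl1a with 17 each. A start site peak was present in both lists at 27 of the 29 genes.

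The background level under the peaks also differed by chromosome. Over shared pairs of peaks, the median ratio of background in control to that in the Taf4-inactivated library was 1.65 on chromosome 19 and lay between 1.55 and 1.64 on the others. It was 1.65 for pairs in all the neighbourhoods and 1.59 for pairs outside them, and its part in the count of neighbourhoods was not tested. The X chromosome had the second highest ratio of background, 1.64, and a ratio of distal control-only to Taf4-inactivated-only peaks of 2.13, but the lowest share of neighbourhood genes among the chromosomes plotted, 0.683% (4 of 586).

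**Figure D5:**
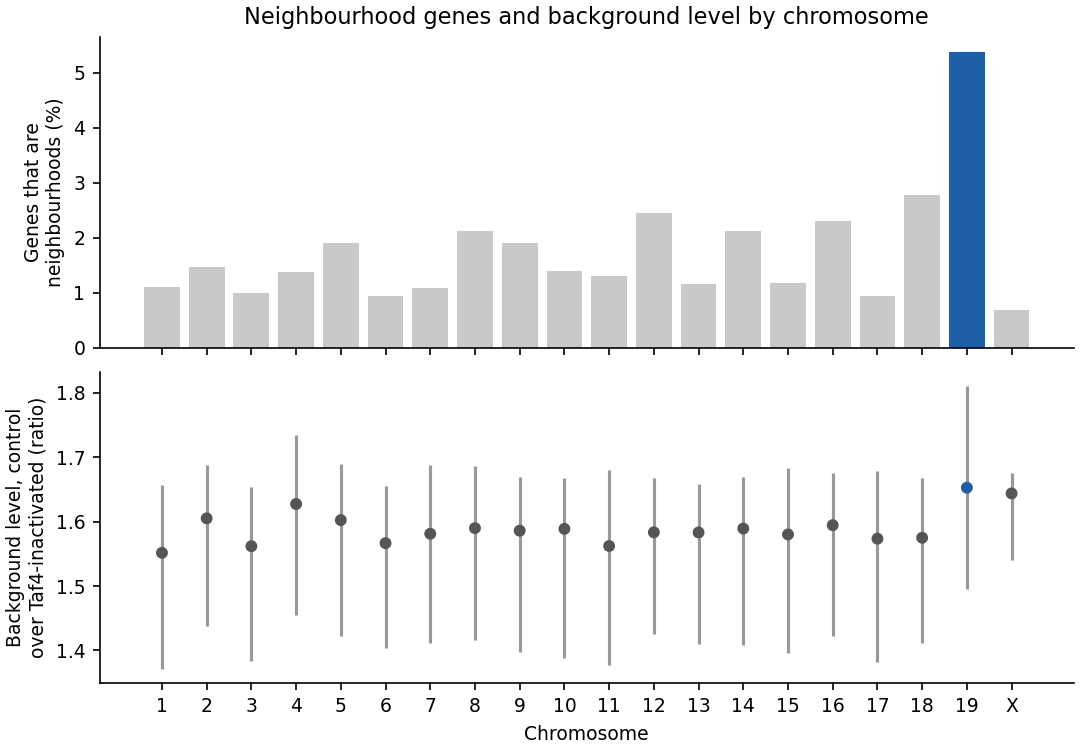
Share of protein-coding genes with a distal peak that were neighbourhood genes (top, percent) and ratio of the background level in control to that in the Taf4-inactivated library over shared pairs (bottom, median with quartiles as lines), by chromosome. Chromosome 19, in blue, has the highest share, 5.38%, and the highest median ratio, 1.65, whereas the X chromosome has the lowest share, 0.683%, and a ratio of 1.64.

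Base composition moved with the lists as well. Distal control peaks were split into 5 equal classes by the GC share of the surrounding 100 kb. From the lowest to the highest class, control-only peaks fell from 64.6% to 56.6% of the distal control peaks, and Taf4-inactivated-only peaks from 57.2% to 40.8% of the distal Taf4-inactivated peaks. Members rose from 4.92% to 7.60% of the distal control-only peaks over the same classes. The part of base composition in the members' choice was not tested.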

How the data were processed

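Peaks from ATAC-seq of 1 library per genotype were analysed, with groups taken from the genotype label. Per the labels and methods, the authors demultiplexed reads with bcl2fastq 2.17.1.14, aligned them to mm9 with Bowtie 1.0.0, discarding reads with several matches, and ran MACS2 2.1.1 in broad mode on each library alone. The deposited score is a whole number derived from the q-value. The deposited fold is a ratio to the background of the same library. The deposited −log10 p and q of a peak are means over its length. The fold, p and q were used only within a list. Read numbers were not used here, so depth came from solving the background that gives each peak's fold and Poisson p, as the level at percentile 5 of the narrowest 10% of peaks.

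Genes and start sites were from GENCODE M1 (mm9), and distances ran from the nearest peak edge. Python 3.11.15, numpy 2.4.6, pandas 2.3.3, scipy 1.17.1 and matplotlib 3.10.9 were used, and assignment, overlap and depth were tested on simulated data. The simulated peaks for depth had a single background level and a p that was not averaged. The averaging of the deposited p over the length of a peak was therefore not covered. Members, gene lists and comparisons were chosen with earlier results of these data known. The text names the 10 genes with most members, the first 5 without a Taf4-inactivated-only peak, by members per Mb and by highest member fold, list genes, and examples at each threshold in alphabetical order. Rows of adjacent neighbourhoods, unbroken rows, 1700067P10Rik and the chromosome 19 genes were named with their values known. Some genes and a sequence that these rules select are not reported here. Alternatives changed overlap, q, list length, the limits of the rule, distance and start sites.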

Additional observations from a re-analysis of the deposited data

How the results depend on the processing

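No paired analysis was possible because each genotype had a single library. The main counts were 261 neighbourhoods and 2883 members, or 6.63% of the distal control-only peaks. With overlap of 50% of both peaks there were 143, 1437 and 2.58%, and with a gap of up to 500 bp counted as shared the share was 7.49%. With a −log10 q of at least 2 in control, all 3 values were 0, and with it in both lists they were 22, 217 and 1.34%, where 2 of the 22 genes were among the 261. At equal list length they were 37, 351 and 1.18%. With the q limit in both lists and at equal list length, overlap was judged between the lists as shortened. A peak whose partner had been removed thus counted there as held by 1 list alone. A minimum of 6 gave 443 neighbourhoods and 9.29%, and a minimum of 12 gave 88, 1352 and 3.11%. A ratio of at most 0.1 gave 39, 415 and 0.954%, and one of at most 0.5 gave 739, 9673 and 22.2%. Distal beyond 5 kb gave a share of 7.10%. Control peaks kept only where they reached the lowest Taf4-inactivated p at its depth, added after the data had been seen, gave 0 in all 3. The peak centre gave 261 and 2883 again, 1 start site per gene 272 and 2966, and at most 200 kb from the start site 249 and 2748. Among the named genes, the excess of control-only over Taf4-inactivated-only peaks turned negative at Ctdp1 (-1), Irx4 (-1), Jdp2 (-2), Foxf1a (-1) and Nkx1-1 (-1) with the q limit in control. It did so at Ccdc147 (-2) and Nkx1-1 (-2) with that limit in both lists, and at Foxc2 (-3) at equal list length. With the depth limit it was negative at 45 of the 261 neighbourhoods and 0 at 60, and among the named genes it was negative at Col5a1 (-1), Ctdp1 (-2), Irx4 (-1), Jdp2 (-2), Tcf7l1 (-1), Foxf1a (-2) and Nkx1-1 (-1). Members were weak peaks, and all 3 main values depended on the limits set on q, p and depth. Other descriptive features were also recomputed under alternatives, where 29 values counted as moved and 17 as the same. For the named genes, 165 values counted as moved, 15 as reversed and 478 as the same. The descriptions given above therefore apply to the main setting. The cause of these changes was not tested.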
